A study of Mus musculus with 82 samples.

Results

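Broad constitutive accessible regions are merged stretches of ATAC-seq intervals, at least 1500 bp wide, that every peak list of a mouse reprogramming series touched. The width is that of the merged stretch and not of the open stretch in any single list. Members were selected by presence and width alone: the 4 lists were merged into 55272 union regions, 21785 of these were touched by an interval of all 4 lists (called constitutive below), and 1024 of the constitutive regions were at least 1500 bp wide. The members make up 1.85% of all union regions, 4.70% of constitutive regions and 9.67% of the base pairs under constitutive regions. The remaining 20761 constitutive regions are called narrower.

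The cells were OG2-MEFs, mouse embryonic fibroblasts that were infected with retroviruses for Oct4, Sox2, Klf4 and c-Myc (OSKM) in every group, so no group without the 4 factors is compared here. Together with OSKM the cells received either Flag, read here as the control, or RNase H1(D209N). RNase H1 cuts the RNA strand of RNA:DNA hybrids, and D209N is a substitution in its catalytic site. Cells were collected at day 3 and at day 7, with 2 samples for each combination, and 1 list was deposited for each, called Flag day 3, D209N day 3, Flag day 7 and D209N day 7. Every interval name in the 4 lists carries the tag rep1, and whether the second sample of a group entered its list is not given in the sources used here. With 1 list per combination no replicate error can be given and no test between lists was made. Intervals quoted with shares are Wilson 95% intervals and cover counting error only. The lists hold 36375, 29189, 42439 and 40452 intervals in the same order, without read counts, so their depth is unknown. In such bulk lists a change in the number of cells with an open site cannot be told apart from a change in openness per cell.

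ATAC-seq finds open chromatin by letting a transposase insert adapters where nucleosomes leave DNA exposed. At most active promoters the open stretch is a short nucleosome-free gap. Wider stretches can arise where several neighbouring gaps lie close together, as at promoters with several start sites, at pairs of genes read in opposite directions, or at dense clusters of factor binding sites. CpG islands, the stretches rich in the dinucleotide CpG that cover many mammalian promoters, are often open in all cell types.

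The bases just before the start site of 4 of the widest members show the range of promoter sequence they hold. Tagln2 encodes transgelin 2, an actin-binding protein. Tshz3 encodes a zinc finger factor and Klf13 a Krüppel-like zinc finger factor, while Alyref2 encodes an mRNA export factor. They were taken from the widest members at coding gene ends that hold a RefSeq start at the outer end of the gene, and not every such member is shown. The promoter of Rps13, a ribosomal protein gene with a narrower region of 882 bp, is set beside them as a contrast and was chosen after the values were seen. Each sequence is the 250 bases before the start, from RefSeq on GRCm38.p6, with every CpG in capitals.
Tagln2: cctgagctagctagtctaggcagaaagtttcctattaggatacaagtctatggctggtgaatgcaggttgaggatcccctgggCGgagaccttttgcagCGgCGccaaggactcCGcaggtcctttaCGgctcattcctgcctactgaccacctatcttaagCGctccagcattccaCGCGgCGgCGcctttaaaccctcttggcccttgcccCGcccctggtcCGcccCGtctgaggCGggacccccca
Tshz3: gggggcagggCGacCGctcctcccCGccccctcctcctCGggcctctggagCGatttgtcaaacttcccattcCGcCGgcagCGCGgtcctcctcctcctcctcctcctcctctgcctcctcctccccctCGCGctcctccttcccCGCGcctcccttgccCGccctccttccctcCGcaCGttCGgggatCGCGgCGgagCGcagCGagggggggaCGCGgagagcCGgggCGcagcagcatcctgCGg
Klf13: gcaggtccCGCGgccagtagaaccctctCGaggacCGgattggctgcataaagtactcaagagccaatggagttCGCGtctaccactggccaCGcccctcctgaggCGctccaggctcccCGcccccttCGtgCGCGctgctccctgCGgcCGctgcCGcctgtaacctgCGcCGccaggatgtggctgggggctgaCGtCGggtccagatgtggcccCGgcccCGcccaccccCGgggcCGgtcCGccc
Alyref2: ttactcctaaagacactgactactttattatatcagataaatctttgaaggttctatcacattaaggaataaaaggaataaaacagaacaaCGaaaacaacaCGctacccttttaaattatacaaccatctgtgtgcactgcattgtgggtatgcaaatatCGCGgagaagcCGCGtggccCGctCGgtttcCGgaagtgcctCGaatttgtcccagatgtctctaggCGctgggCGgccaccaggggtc
Rps13: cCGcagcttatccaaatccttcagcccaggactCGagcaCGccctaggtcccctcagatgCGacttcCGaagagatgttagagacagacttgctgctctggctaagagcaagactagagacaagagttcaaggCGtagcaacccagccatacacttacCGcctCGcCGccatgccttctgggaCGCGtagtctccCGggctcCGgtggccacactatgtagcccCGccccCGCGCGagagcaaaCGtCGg

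The Tagln2 bases lie at chr1:172499996-172500245 on the plus strand and hold 14 CpG at a GC content of 60.0%. The Tshz3 bases lie at chr7:36697868-36698117 on the plus strand, with 27 CpG and 74.0% GC. The Klf13 bases lie at chr7:63938916-63939165 on the minus strand, with 24 CpG and 71.6% GC. The Alyref2 bases lie at chr1:171503228-171503477 on the plus strand, with 12 CpG and 44.8% GC. The Rps13 bases lie at chr7:116334191-116334440 on the minus strand, with 19 CpG and 60.0% GC. The 5 promoters all hold the GC box GGGCGG on one of the strands. Klf13 also holds the CCAAT box and Alyref2 the ETS motif CCGGAAG. Rps13, with the narrowest region, has more CpG than Tagln2 or Alyref2.

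The widths ran from 1500 to 5666 bp with a median of 1681.5 bp, against a median of 778 bp for narrower regions. The quartiles were 1579.8 and 1851 bp, and 148 members were at least 2000 bp wide. Just inside the limit were the regions at Arf3, Sfpq and Ywhag, each 1500 bp wide, and just outside were those at Kat6b, Hnrnpa1 and Mex3c, each 1498 bp. The limit therefore divides a continuous range of widths.

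The 2 widest members have to be read apart from the rest. The region at chr17:39843096-39848761 is 5666 bp wide and overlaps the ribosomal RNA pseudogene Rn18s-rs5 and the noncoding gene AY036118. The region at chr1:24611637-24616090 is 4454 bp wide and overlaps the pseudogenes Gm10222 and Gm10925. Both were covered almost whole in every list, by 5570, 5540, 5666 and 5575 bp and by 4441, 4425, 4454 and 4438 bp. These and other groups of 4 values follow 1 order: the 2 day 3 lists, Flag then D209N, and the 2 day 7 lists, Flag then D209N. Sequence like that of ribosomal RNA genes occurs in many copies, so reads placed in the chr17 region may come from other copies. The chr1 region overlaps no gene named as ribosomal. Reads placed there may come from other sequence that its pseudogenes resemble, which was not tested. Gm20783, a predicted gene with the widest region at a coding gene end, held 2887, 2438, 3121 and 3180 bp of 3183 bp.

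The members differed in how much of their width each list covered. The median covered stretch at day 3 was 1349.5 bp with Flag and 1129.5 bp with D209N, and at day 7 it was 1549.5 and 1567 bp. As a share of union width these medians were 79.5%, 65.7%, 93.7% and 94.6%. The D209N day 3 list covered the least in 715 of 1024 members, and D209N day 7 the most in 470. Narrower regions had the same order of lists, with medians of 81.2%, 72.0%, 90.5% and 91.3%. These shares are a description, since union width chose the members.

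**Figure D1:**
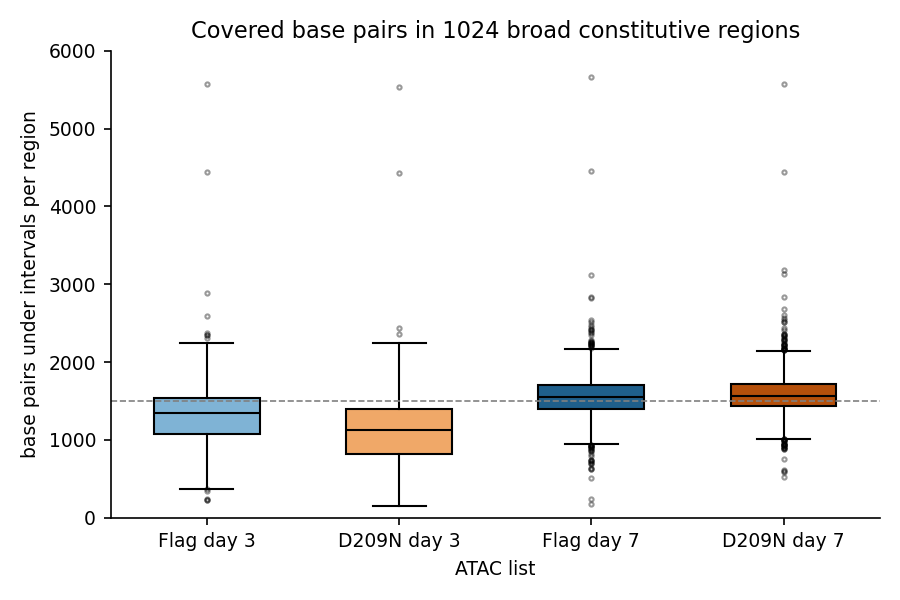
Base pairs under intervals (y axis) in the 1024 broad constitutive regions, for each of the 4 lists (x axis). Boxes span the quartiles with the median as a line, whiskers reach 1.5 times the box height, points lie beyond them, and the dashed line marks 1500 bp; the day 7 medians of 1549.5 and 1567 bp lie above it and the day 3 medians of 1349.5 and 1129.5 bp below.

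Few members were a single wide interval in every list. One interval of 1500 bp or wider was present in 285 members with Flag and 139 with D209N at day 3, and in 597 and 637 at day 7. Only 80 members had one in all 4 lists and 172 had none in any list, their width coming from offset or neighbouring intervals. In 231 members both day 7 lists and neither day 3 list held such an interval, and in 15 the reverse was found. Intervals of this width were nearly all at constitutive sites: 100% of those in each day 3 list, 98.4% in Flag day 7 and 98.6% in D209N day 7 lay in a region of all 4 lists. For intervals under 1500 bp the shares were 60.8%, 76.2%, 51.4% and 53.7%, and a wider interval also has more chance to meet another.

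Many members were split into 2 or more intervals at day 3 and formed 1 interval at day 7. Split members numbered 253 with Flag and 283 with D209N at day 3, and 139 and 96 at day 7. These were 24.7%, 27.6%, 13.6% and 9.38% of members, against 0.877%, 0.896%, 0.814% and 0.621% of narrower regions. Union width chose the members and grows where neighbouring intervals are joined, so this contrast follows in part from the rule. In 35, 77, 23 and 27 of the split members the separate intervals carry 1 peak name, so there a single named peak is listed in pieces. In Flag 187 members were split at day 3 and joined at day 7, and 73 went the other way. In D209N the numbers were 235 and 48. The stretch open in all 4 lists had a median of 978 bp, or 56.7% of the width, and in 79 members it reached 1500 bp. No base was covered in all 4 lists in 9 members (0.879%), close to the 0.881% of narrower regions. Among these 9 are Rcor2, Fat3, Abr, Nat8l and the region 1.4 kb from an end of Hspa8, named below for large folds. Folds at such members may compare intervals at different places in the region.

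Among the widest members, Ubtf, Tshz3 and Dnmt3a were covered more in both day 7 lists than in either day 3 list. Ubtf encodes a factor that opens ribosomal RNA genes for RNA polymerase I, and its region at chr11:102316744-102319567 lies inside the gene, 4.1 kb from the nearest coding gene end. At day 3 it was covered by 924 bp with Flag and 407 bp with D209N, and at day 7 by 2378 and 2683 bp. Tshz3, at chr7:36695886-36698525, was covered by 1409, 366, 2540 and 2359 bp. Dnmt3a, which encodes a DNA methyltransferase that sets new methylation marks, was covered by 1079, 644, 2229 and 1918 bp at chr12:3806161-3808849. In these 3 regions D209N day 3 was the lowest of the 4 lists.

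Hivep2, a large zinc finger factor, had a region of 3290 bp at chr10:13964534-13967823 inside the gene, covered by 1454, 1293, 2841 and 3132 bp. Tagln2 held 1943, 2362, 2822 and 2611 bp. There the Flag day 3 list was the lowest. Cdk6, a cell cycle kinase, went against this order: the Flag day 3 list covered 2587 bp, above the 1722, 2103 and 2082 bp of the others. Ddit3, a stress response factor, and Alyref2 also had their highest value in Flag day 3, with 2375 and 2355 bp against 2060 and 1845 bp in Flag day 7.

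**Figure D2:**
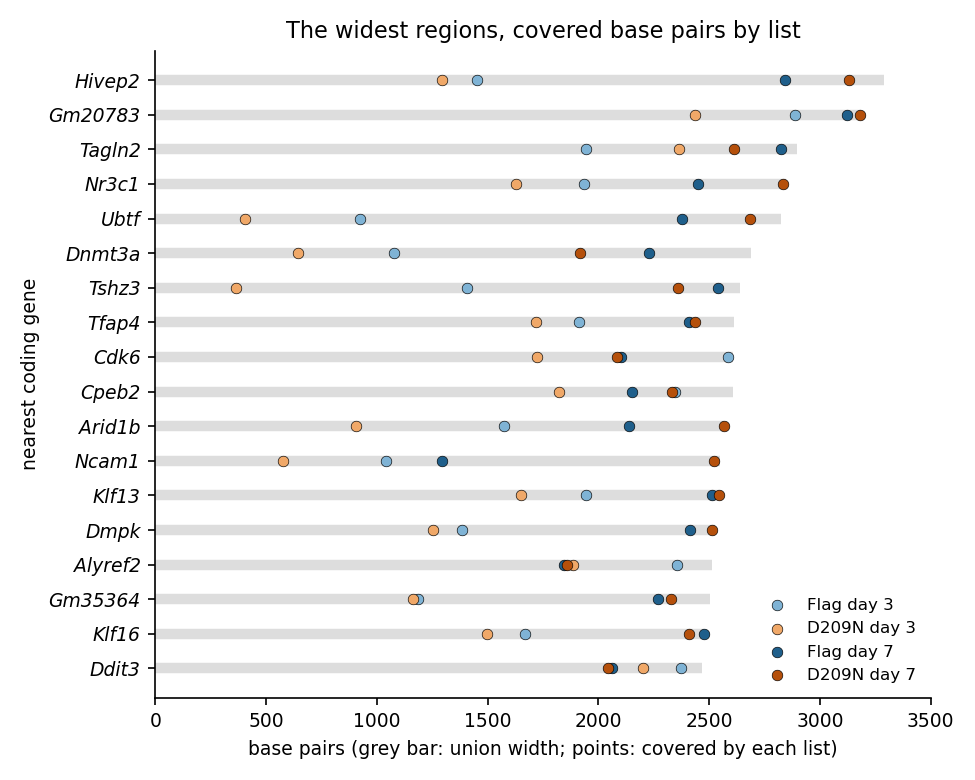
Covered base pairs (x axis) in each list for the 12 widest members at coding gene ends and 6 of the 8 widest elsewhere, without the 2 widest members of all, named by the nearest coding gene (y axis), with grey bars for union width. At Ubtf, Dnmt3a and Tshz3 both day 7 points lie right of both day 3 points, and at Cdk6, Alyref2 and Ddit3 the Flag day 3 point lies furthest right.

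The direction in which the members extend was measured where RefSeq gives starts on 1 strand only. This held for 508 members, each read from the coding start nearest its middle, and the rule did not use strand. Union regions reached a median of 693 bp upstream and 1005 bp downstream of the start, and 319 of 508 (62.8%) reached further downstream. Narrower regions with such a start, 6457 in all, reached 369 bp upstream and 495 bp downstream, and 67.6% reached further downstream. Within single lists the share of the 508 that reached further downstream was 56.1%, 50.8%, 63.6% and 62.6%, and of narrower regions 62.5%, 61.1%, 68.3% and 66.8%. In D209N day 3 the members showed no lean, with medians of 491 bp upstream and 493.5 bp downstream.

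The difference between days was larger downstream of the start than upstream, in members and also in narrower regions. In Flag the covered stretch of the 508 members was longer at day 7 by a mean of 65.5 bp upstream and 214.4 bp downstream. Upstream coverage was higher at day 7 in 337 of 508 members and downstream coverage in 405. In D209N the means were 136.3 bp upstream and 355.4 bp downstream, with 393 and 459 members higher at day 7. At day 3 D209N fell short of Flag by a mean difference of -62.8 bp upstream and -132.2 bp downstream. At day 7 the arms differed by 7.96 bp upstream and 8.81 bp downstream. At 725 bp downstream of the start 43.0% of members were covered with Flag and 31.3% with D209N at day 3, and 63.5% and 64.3% at day 7. At 725 bp upstream the values were 34.8%, 31.8%, 40.3% and 40.9%. In narrower regions the median covered stretch in Flag went from 305 to 332 bp upstream and from 390 to 460 bp downstream. In D209N it went from 271 to 339 bp upstream and from 346 to 452 bp downstream.

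The start itself was also less often covered in the day 3 lists of these members. In the first 50 bp after the start, coverage averaged over the 508 members was 92.4% with Flag and 82.5% with D209N at day 3, against 98.5% and 98.6% at day 7. Narrower regions stood at 95.6%, 91.4%, 98.8% and 98.5%. The list with the lowest coverage, D209N day 3, is also the shortest list, and the part of list length in this was not tested.

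**Figure D3:**
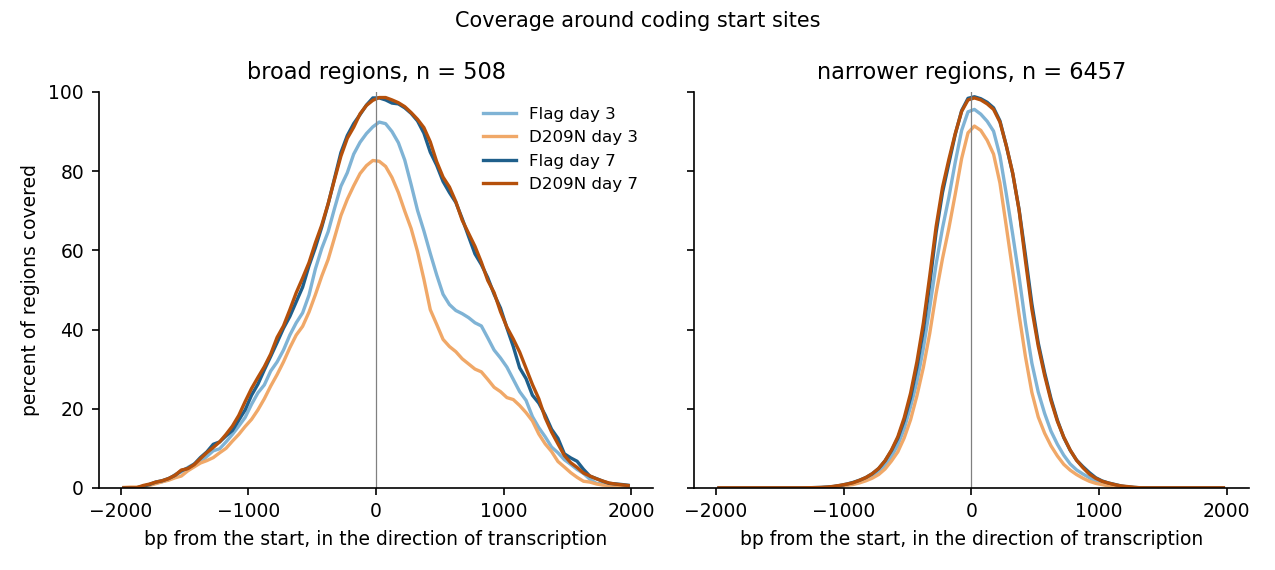
Percent of regions covered (y axis) in 50 bp steps from 2000 bp before to 2000 bp after a coding start (x axis, direction of transcription to the right), for 508 broad regions at left and 6457 narrower regions at right, with 1 line per list. At 725 bp downstream the day 7 lines of the broad regions stand at 63.5% and 64.3% and the day 3 lines at 43.0% and 31.3%, a wider separation than at 725 bp upstream.

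D209N was set against Flag at day 3 by the base pairs covered in each member. The 4 lists also chose the members, so these folds and those below are descriptions. A member was called when its covered base pairs differed by 1.5-fold or more. D209N was lower in 231 of 1024 members (22.6%), where 15.5% of all constitutive regions were lower, and higher in 19 (1.86%), where 3.49% were. The median fold was 0.879 in members, 0.907 in constitutive regions of 1000 to 1499 bp and 0.906 in all constitutive regions, a log2 shift of -0.14 for the last. When each list was divided by its median over all constitutive regions, 152 members were lower and 41 higher, and the share lower was 14.8% against 9.22% of all constitutive regions. The median fold was then 1.01 in members and 1.04 in all constitutive regions.

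The 5 lowest folds at day 3 were those of Med12l, Fat3, Sall1, the Malat1 region and C2cd4b. Med12l, a Mediator subunit gene, held 1404 bp in Flag and 154 bp in D209N at chr3:59005485-59007318, a fold of 0.11. Sall1, a zinc finger factor of embryonic organs and pluripotent cells, held 1270 and 175 bp at chr8:89042587-89044211, a fold of 0.14. Fat3, an atypical cadherin, held 1349 and 173 bp, and C2cd4b 931 and 170 bp. The region at an end of the long noncoding RNA gene Malat1, at chr19:5793295-5795544, held 2087 and 358 bp, a fold of 0.17. By day 7 Sall1 was covered by 1481 bp in Flag and 1478 bp in D209N, and the Malat1 region by 2247 and 2164 bp.

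The opposite direction at day 3 was rarer. Atp8b2, a lipid flippase gene, held 410 bp in Flag and 1236 bp in D209N at chr3:89962010-89963583, a fold of 3.01. Nufip2 held 487 and 1025 bp, Bin1, a membrane-bending protein gene, 576 and 1211 bp, Unc5c, a netrin receptor gene, 771 and 1474 bp, and Ache, the acetylcholinesterase gene, 869 and 1466 bp. At day 7 none of these 5 passed 1.5-fold between the arms.

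Day 7 showed less difference between the arms. D209N was higher in 29 members (2.83%), where 5.18% of all constitutive regions were, and lower in 13 (1.27%), where 3.50% were. The median fold was 1.01. Of the 231 members lower in D209N at day 3, 211 were within 1.5-fold at day 7, 5 were still lower and 15 were higher. Within 1.5-fold were thus 91.3% (87.0 to 94.3) of them, against 86.8% (85.6 to 87.9) of the 3376 constitutive regions lower at day 3. Of the 231, 2.16% were lower and 6.49% higher at day 7, against 1.27% and 2.83% of all members. The 2 days share no list, but both comparisons count the same members, which were chosen for presence in all 4 lists.

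A region at chr2:56119438-56121260, between genes and 521.3 kb from the nearest coding gene end (Kcnj3), stood out at day 7. At day 3 it held 1777 bp with Flag and 1624 bp with D209N, and at day 7 it held 183 and 527 bp. A second region of low day 7 coverage in Flag lay 1.4 kb from an end of Hspa8, a chaperone gene, with 1202, 884, 239 and 904 bp. No base of this second region was covered in all 4 lists. The Sphk1 region, inside a sphingosine kinase gene, was lower in D209N at day 7, with 1695 bp in Flag and 942 bp in D209N. Tspan9, a tetraspanin gene, held 1575 and 878 bp, and a member inside Pard3, a cell polarity gene, 1159 and 583 bp. That member had the same fold of 0.50 at day 3, with 1166 bp in Flag and 588 bp in D209N.

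From day 3 to day 7 the Flag lists covered more in 218 members (21.3%), where 14.2% of all constitutive regions did, and less in 26 (2.54%), where 6.68% did. The median fold was 1.15 in members and 1.10 in all constitutive regions, or 0.20 and 0.13 on the log2 scale. Divided by list medians, 141 members were higher (13.8%), as were 1961 of the 21785 constitutive regions, and 42 lower (4.10%), where 9.58% of all constitutive regions were. The median fold was then 1.03 in members and 0.986 in all constitutive regions. Chd7, a chromatin remodeller gene, held 392 bp at day 3 and 2069 bp at day 7 at chr4:8689905-8692132. Abr held 232 and 1467 bp, Nat8l 235 and 1427 bp, Pitpnc1 246 and 1429 bp, and Eif3k, a translation initiation factor gene, 351 and 1710 bp. At Abr and Nat8l no base was covered in all 4 lists. Of the members that lost width, Cmtm7 went from 1773 to 739 bp.

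In D209N 446 members were higher at day 7 (43.6%), where 27.6% of all constitutive regions were, and 6 were lower (0.586%), where 3.55% were. The median fold was 1.41 in members and 1.23 in all constitutive regions, or 0.50 and 0.30 on the log2 scale. Divided by list medians, 236 members were higher (23.0%, against 11.5% of all constitutive regions) and 32 lower (3.12% against 9.95%). The median fold was then 1.09 in members and 0.953 in all constitutive regions. Rcor2, a subunit gene of the CoREST repressor family, went from 148 to 1967 bp at chr19:7267138-7269122, a fold of 13.29. C2cd4b went from 170 to 1945 bp, Fat3 from 173 to 1948 bp and Med12l from 154 to 1613 bp. At Rcor2 and Fat3 no base was covered in all 4 lists. Rreb1, a zinc finger factor gene, reached 1886 bp at a fold of 9.02. S100a11, a calcium-binding protein gene, fell in both arms, from 1423 to 887 bp in Flag and from 1481 to 901 bp in D209N.

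Both arms were higher at day 7 in 181 members (17.7%), where 7.90% of all constitutive regions were. D209N alone was higher in 265 (25.9%), where 19.6% were, and Flag alone in 37 (3.61%), where 6.34% were. Flag was lower and D209N higher in 7 (0.684%), where 0.927% of all constitutive regions were, and the reverse held in 0 members and 0.133% of all constitutive regions. The difference between the arms was not tested. A low D209N day 3 value enters both the day 3 comparison and this one, so they are not separate evidence. Members at a coding gene end and elsewhere had median folds of 1.42 and 1.30 in D209N and 1.15 and 1.12 in Flag.

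**Figure D4:**
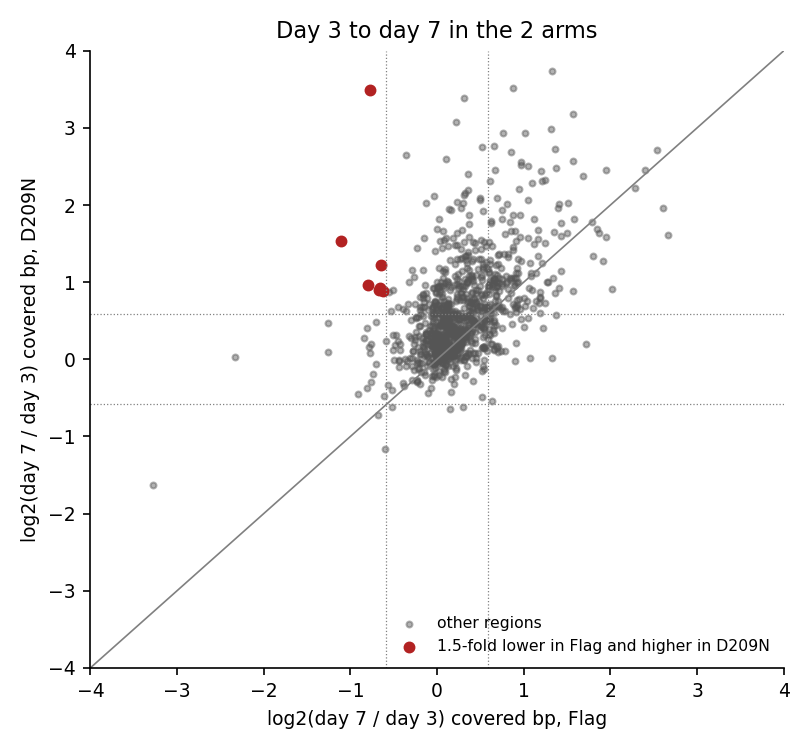
Log2 of day 7 over day 3 covered base pairs for each of the 1024 members, Flag on the x axis and D209N on the y axis, with dotted lines at 1.5-fold and a line of equality. Most points lie in the upper right and above the line of equality, and 7 red points were lower in Flag and higher in D209N.

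Position in the genome was not part of the rule. Within 1 kb of an end of a protein-coding gene lay 786 members (76.8%, 74.1 to 79.2), against 44.8% (44.1 to 45.5) of narrower regions, 71.2% (69.9 to 72.5) of constitutive regions of 1000 to 1499 bp and 11.4% (11.0 to 11.7) of regions missing from at least 1 list. A further 151 members lay inside a coding gene, 44 at the end of a noncoding gene and 43 between genes. Wider regions have more chance to reach an end, and the share rose with width across these classes. Of the 786, the RefSeq start was reached in 629, the 3′ end alone in 12, and the strand of the gene was not known in 145.

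Start sites were counted in members with the promoter table, of which no windows on chromosome 18 were used here. The 31 members there count as holding no start and enter no result on strand, direction, composition or motifs. Coding starts of the promoter table lay in 681 members (66.5%, 63.6 to 69.3) and in 37.2% of narrower regions. Over the other chromosomes the shares were 68.6% (65.6 to 71.4) of 993 members, 38.4% (37.7 to 39.1) of narrower regions and 63.4% (62.0 to 64.7) of regions of 1000 to 1499 bp. Among members with any start, 173 of 710 held starts on both strands (24.4%, 21.4 to 27.7), against 15.7% (14.9 to 16.5) of narrower and 20.3% (19.0 to 21.8) of 1000 to 1499 bp regions. The last interval overlaps that of the members. Starts of 2 or more coding genes lay in 13.7% (11.3 to 16.4) of members with a coding start, 8.60% (8.00 to 9.25) of narrower and 11.9% (10.8 to 13.1) of 1000 to 1499 bp regions with one. None of these differences was tested. Starts of 1 gene at least 500 bp apart were held by 66 of 681 members (9.69%, 7.69 to 12.1), against 1.66% (1.39 to 1.97) and 3.54% (2.93 to 4.28). The largest such distance was 1809 bp at Ubtf, with 3 starts in the region, followed by 1644 bp at Sinhcaf and 1452 bp at Pnpla6. A region must be wide to hold starts that far apart.

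Of 21887 coding genes, 958 had a member within 1 kb of an end (4.38%), and 10222 had a narrower constitutive region alone (46.7%). The median length was 28.9 kb for genes with a member, 22.9 kb for those with a narrower region alone and 11.1 kb for the rest. Chromosome 3 had the highest share of constitutive regions that were broad, 6.68%, and chromosome 6 the lowest of those with any member, 3.37%. Chromosome Y had 8 constitutive regions and no member.

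The 22 gene lists used here were read against the 4.38% of all coding genes and the 46.7% with a narrower region alone, and no test over a list was made. Over the 602 genes of all the lists, 11.5% (9.16 to 14.3) had a member. The chosen lists as a whole thus lay above all coding genes, and a list near 11.5% does not stand out among them. KLF and SP factors, zinc finger proteins that bind GC-rich promoter elements, had a member at 6 of 17 genes (35.3%) and a narrower region alone at 9. The 6 were Klf13, Klf16, Sp3, Klf12, Sp4 and Klf6. Sp3 held 2306, 1899, 2351 and 2297 bp, so all 4 lists covered most of it. Klf12 held 1671, 664, 1953 and 1634 bp, with D209N day 3 the lowest.

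Splicing factors and RNA-binding proteins had a member at 8 of 30 genes (26.7%): Hnrnpu, Hnrnpa2b1, Ptbp1, U2af2, Srsf2, Hnrnpd, Srsf6 and Hnrnpk. At Hnrnpa2b1, chr6:51469063-51471201, the lists covered 1612, 632, 2087 and 2139 bp, in a region that also overlapped the neighbouring gene Cbx3. Ptbp1, a repressor of neural exons, went from 1018 to 2056 bp in Flag and from 1024 to 1653 bp in D209N. Contractile and cytoskeleton genes had 6 of 23 (26.1%), namely Tagln2, Tpm4, Cnn3, Zyx, Cnn2 and Actn1. Tpm4, a tropomyosin gene, held 2140, 1828, 2090 and 1911 bp and Cnn3, a calponin gene, 1638, 1576, 1725 and 1756 bp, so both were wide in every list.

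Genes of growth signalling were also represented. AP-1 and immediate early factors, which answer growth signals within minutes, had 5 of 23 (21.7%): Jun, Egr1, Ier5, Fosb and Jund. The Fosb member lay outside the gene, 469 bp from an end. Jun, at chr4:95051459-95053642, held 1713, 1596, 2115 and 1996 bp and Ier5 999, 820, 1566 and 1607 bp. Growth signal feedback genes had 5 of 25, with Tob1, an antiproliferative factor, at 1951, 1986, 2220 and 2042 bp. TGF-beta, BMP and Id genes had 5 of 25: Skil, Smad5, Smad1, Tgfbr2 and Smad4. Smad1, a BMP signal transducer, went from 541 to 1304 bp in Flag and from 701 to 1404 bp in D209N. In the TEAD and Hippo list 3 of 20 genes had a member, the coactivator gene Yap1, Amotl2 and Vgll4.

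Polycomb and chromatin regulators had a member at 7 of 33 genes (21.2%), among them Chd7, Kmt2a, Yaf2, Chd1, Rybp and Crebbp. Kmt2a, a histone H3 lysine methyltransferase gene, went from 1305 to 2088 bp in Flag and from 1375 to 2213 bp in D209N. Housekeeping genes had 6 of 28 (21.4%), with Hsp90ab1, a chaperone gene, at 1842, 907, 1941 and 1715 bp. Cell cycle regulators had 4 of 29 (13.8%): E2f1, Wee1, Ccng2 and Ccne2. E2f1, a factor for S phase genes, was widest in Flag day 3, with 1928 bp against 1328, 1366 and 1325 bp.

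Lists of cell identity were also read. Fibroblast and mesenchymal regulators had 3 of 27 (11.1%), Foxp1, Nfib and Twist1. Twist1, a mesenchymal transcription factor, held 1336, 548, 1367 and 1586 bp at chr12:33957012-33958597. Fibroblast matrix genes had 2 of 24, Fbn1 and Thbs1, and epithelial genes 2 of 29, Dsp among them. Dsp, which encodes desmoplakin, went from 1082 to 1376 bp in Flag and from 789 to 1794 bp in D209N. Pluripotency genes had 2 of 32 (6.25%), Sall1 among them, and 21 of the 32 had no constitutive region at an end. Hypoxia and glycolysis genes had 2 of 23, Vegfa and Bhlhe40, and Vegfa, the vascular growth factor gene, held 769, 395, 1778 and 1959 bp.

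Other lists had few members or none, with shares near or below the 4.38% of all coding genes. Where their genes had a constitutive region it was nearly always narrower. Over all coding genes, too, a narrower region alone was more frequent than a member. Ribosomal protein genes had a member at 2 of 78 (2.56%), Rpl7 and Rpl3, and a narrower region alone at 73, with a median width of 890 bp. The Rpl3 member lay outside the gene, 578 bp from an end, and the Rpl7 member also overlapped Rdh10. R-loop processing genes had 1 of 22 (4.55%) and a narrower region alone at 20. The 1 gene was Ddx5, an RNA helicase whose bound RNAs the series mapped by CLIP-seq, with 999, 898, 1920 and 1541 bp at chr11:106787515-106789506. The Ddx5 member also overlapped the neighbouring gene Cep95. Genes of p53 and DNA damage had 0 of 22 and a narrower region alone at 20. Hox genes had 0 of 39, and the neural, endoderm, trophoblast and muscle, and blood, endothelial and keratinocyte lists had 0 of 20 each. Most genes of these lists had no constitutive region at an end: 26 of the Hox genes, and 13, 18 and 14 genes of the others in the same order.

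**Figure D5:**
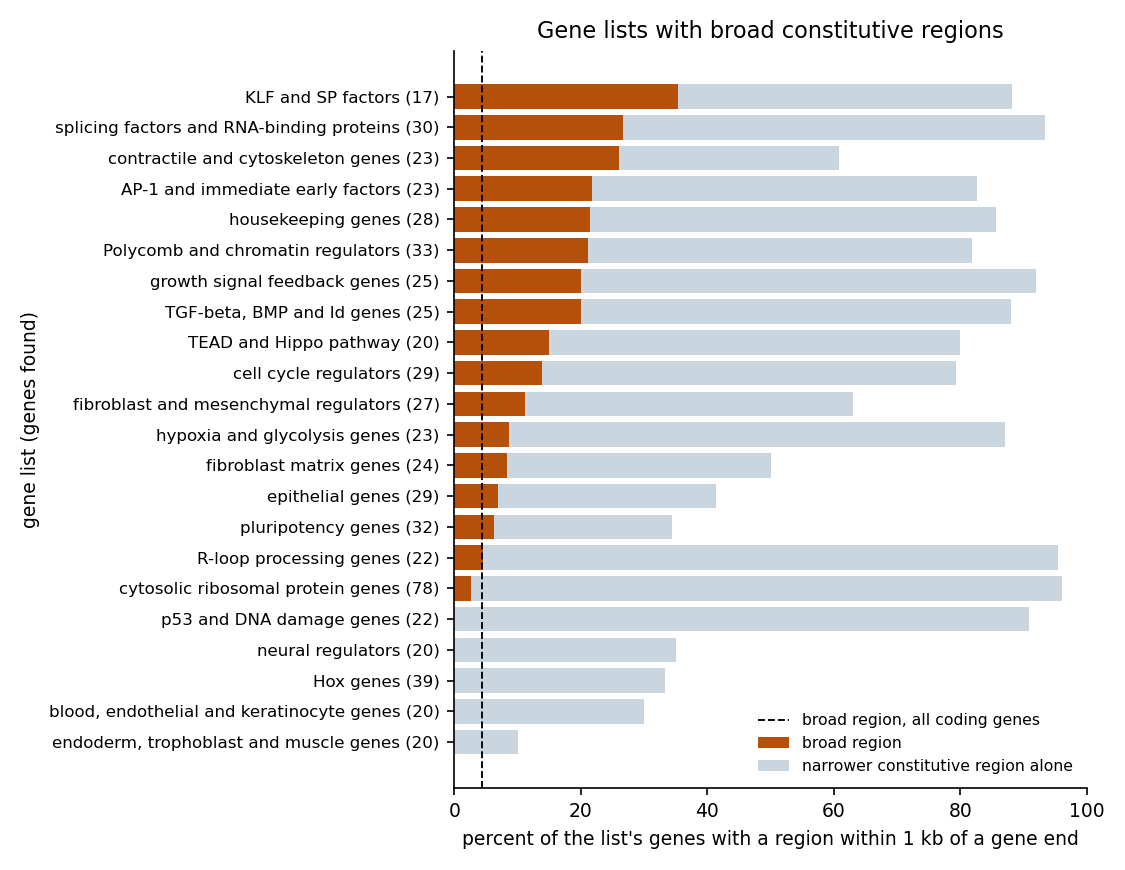
Percent of each gene list (x axis) with a broad region within 1 kb of a gene end (dark bars) or with a narrower constitutive region alone (light bars), for 22 lists (y axis, genes found in parentheses), and a dashed line at the 4.38% of all coding genes with a broad region. KLF and SP factors stand at 35.3% and ribosomal protein genes at 2.56%, with 93.6% of the latter having a narrower region alone.

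The loci of the delivered factors and the enzyme were not among the members. The widest constitutive region at a gene end was 731 bp for Pou5f1, which encodes Oct4, 822 bp for Sox2, 983 bp for Klf4, 1011 bp for Myc and 920 bp for Rnaseh1. Delivered cDNA could add reads at exons of these genes. As a check of the cell label, 1 of 7 fibroblast markers had a broad region at an end (Twist1) and 2 had a narrower one (Col1a1 and Col1a2). Col3a1, Thy1, Twist2 and Prrx1 had none that was constitutive. None of 5 pluripotency markers and none of 3 keratinocyte markers had a constitutive region, while 1 of 3 blood markers (Spi1) and 1 of 3 endothelial markers (Kdr) had a narrower one. A constitutive region at a gene end is not a measure of expression.

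Genes for transfer RNA, which are read by RNA polymerase III from promoters inside the gene, were frequent in members. At least 1 of the 408 tRNA genes lay in 27 of 1024 members (2.64%, 1.82 to 3.81), against 0.549% (0.457 to 0.659) of narrower regions, 1.19% (0.923 to 1.54) of regions of 1000 to 1499 bp and 0.0866% (0.0603 to 0.124) of regions missing from at least 1 list. The 27 members held 52 tRNA genes, 12.7% of the total. Per megabase of region this was 28.9 tRNA genes in members, 14.5 in regions of 1000 to 1499 bp, 9.04 in narrower regions and 2.49 in the rest. This count was made after the positions of the members had been seen.

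Most tRNA members lay neither at an end of a coding gene nor inside one, and most were 1 interval in every list. At the end of a noncoding gene lay 18 of the 27, at a coding gene end 8 and inside a coding gene 1. A tRNA gene is itself a noncoding gene, so a member that holds one cannot be classed as between genes. The 18 lay from 3.5 kb (Ctc1) to 70.0 kb (Acpp) from the nearest coding gene end. Each of 17 members held 2 or more tRNA genes. The median covered stretch was 1406, 1273, 1466 and 1542 bp. In every list 21 of 27 were 1 interval, where 54.6% of all members and 97.4% of narrower regions were. D209N was lower at day 3 in 3 of 27, where 22.6% of members and 15.5% of all constitutive regions were, and higher in 0, where 1.86% and 3.49% were. At day 7 D209N was 1.5-fold or more higher near Dhx37, with 744 bp in Flag and 1433 bp in D209N, and near Acpp, with 1022 and 1538 bp. In that comparison 2.83% of members and 5.18% of all constitutive regions were higher. From day 3 to day 7 in Flag, 1 of the 27 was higher, where 21.3% of members and 14.2% of all constitutive regions were, and 1 lower, where 2.54% and 6.68% were. In D209N 5 were higher at day 7, where 43.6% and 27.6% were, and 0 lower, where 0.586% and 3.55% were. The median fold in D209N was 1.21 in the 27 and 1.41 in all members.

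Several tRNA members stood in groups. Near Fcgr3 on chromosome 1, members at chr1:171063856-171065999, chr1:171071787-171073437 and chr1:171079399-171081061 held 4, 3 and 3 tRNA genes, including a repeated set for glutamate, glycine and aspartate. The first held 1980, 1759, 2124 and 2107 bp, and the third 1574, 1535, 1602 and 1661 bp. Such repeated tRNA units are near-identical, so reads may be shared between copies. On chromosome 13, 4 members between chr13:23285163-23287013 and chr13:23411607-23413291 held 2 or 3 tRNA genes each. Counted once per 1 Mb, the 27 members fell to 18 places.

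Other small RNA genes were found as well. The Rn7sk gene, whose RNA restrains transcription elongation, lay in a member at chr9:78175327-78177025 with 1699, 1548, 1554 and 1629 bp. Small nuclear RNA genes lay in 7 members (0.684%, 0.332 to 1.40), 0.608% of regions of 1000 to 1499 bp and 0.207% of narrower regions. Per megabase this was 4.44, 5.32 and 2.62 such genes, so members lay below the next narrower class. Small nucleolar RNA genes lay in 1 member. MicroRNA hairpins lay in 14 members (1.37%, 0.816 to 2.28), 0.461% (0.305 to 0.697) of regions of 1000 to 1499 bp and 0.270% (0.208 to 0.350) of narrower regions. Among them were Mir2861 and Mir3960 in the region at Cdk9. Long noncoding genes overlapped 194 members (18.9%), 16.0% of regions of 1000 to 1499 bp and 14.0% of narrower regions. Per megabase the order was the reverse, with 109.4, 136.5 and 156.7 genes. An end of Neat1, the noncoding RNA gene of paraspeckles, lay within 1 kb of a member at chr19:5845491-5847163 with 969, 1040, 1381 and 1671 bp.

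Promoter windows in members were rich in CpG, as in other constitutive regions of high width. The 300-base RefSeq windows around coding starts, 250 bases before and 50 after, were matched for 17492 of 21887 coding genes, and 975 windows overlapped a member. Their median GC content was 66.7%, against 62.0% for 9579 windows in narrower regions and 47.7% for 8762 windows in no region. A GC content over 50% with an observed over expected CpG ratio over 0.6 was found in 82.6% (80.1 to 84.8) of member windows. This share was 75.6% (74.8 to 76.5) in narrower regions, 82.8% (81.6 to 84.0) in regions of 1000 to 1499 bp, 5.00% in no region and 44.9% of all 21263 windows. Members and the next narrower class thus differed by less than the counting error of the members.

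Short motifs were searched as letters on both strands of these windows. The GC box GGGCGG was in 76.7% (74.0 to 79.3) of member windows, 69.7% of narrower windows, 76.1% of windows at 1000 to 1499 bp and 46.2% of all windows. The ETS motif CCGGAAG was less frequent in members, at 13.9% (11.9 to 16.3), than in narrower windows at 20.6% (19.8 to 21.4) and at 1000 to 1499 bp at 17.0% (15.8 to 18.2), with 11.6% of all windows. The NRF1 motif GCATGCGC stood at 3.38% (2.42 to 4.72), 6.18% (5.72 to 6.68), 6.51% (5.78 to 7.34) and 3.52% in the same order. The CCAAT box was in 35.0% (32.0 to 38.0) of member windows, 40.1% of narrower windows and 38.2% of all windows.

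The other 4 motifs were searched in the same way. The TATA box TATAAA was in 5.03% of member windows, 5.69% of narrower windows and 22.1% of windows in no region, with 12.6% of all. The E-box CACGTG stood at 10.6% in members and in narrower regions and at 7.84% of all. The cAMP response element TGACGTCA stood at 2.46% (1.66 to 3.64), 3.82% (3.46 to 4.22) and 2.23%. The AP-1 motif TGANTCA, with N for any base, stood at 4.00%, 4.08% and 6.99%. No motif searched contains another, and a match shows letters in a window, not a bound factor.

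Members were mostly isolated from one another. Another member lay within 10 kb of 19 members (1.86%), and the median distance to the next was 584.6 kb. Within 25 kb the median number of other union regions was 2.00, the same as for narrower regions, and 214 members (20.9%) had none, as did 3948 of the 20761 narrower regions. Assigned to the nearest coding gene end within 100 kb, 980 genes had a member, 18 had 2 or more and 2 had 3, Elf2 and Fcgr3. Elf2, an ETS factor gene, had members of 1731, 1878 and 1523 bp, of which the last holds 2 tRNA genes 17.4 kb from its end.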

How the data were processed

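The 8 ATAC-seq samples of the series fall into 4 groups of 2, and for each group the authors deposited a single list of intervals (chromosome, start, end, name) that carries no count, signal or score. All interval names carry the tag rep1. The submitters' processing notes name Bowtie2 2.3.2 and CASAVA as tools, and GRCm38.p5 and mm10 as builds. Not given in the sources used here are the peak caller, its threshold, any insertion offset and whether both replicates entered a list. The interval positions are thus the only deposited values used, in base pairs.

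Chromosomes 1 to 19, X and Y were used, overlapping or touching intervals were joined, and covered base pairs were summed per region and list. RefSeq tables of GRCm38.p6 gave the genes and, from promoter windows, the start sites. The merging step was tested on simulated data with known answers. Python 3.11.15, numpy 2.4.6, pandas 2.3.3, scipy 1.17.1 and matplotlib 3.10.9 were used.

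The members, gene lists and comparisons were chosen with earlier results of these data known. Named were the 12 widest members at coding gene ends, the 8 widest elsewhere, up to 4 widest per gene list, the genes with most members, the 5 largest folds in each direction per comparison, 3 members on each side of the width limit, and the delivered genes. Malat1, Neat1, Rn7sk, the tRNA and microRNA genes, the genes listed beyond 4 in a list and those with distant starts were named after their values were seen. Some members of the gene lists are not reported here by name.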

Additional observations from a re-analysis of the deposited data

Results flagged for a closer look

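In 7 members the covered stretch was at least 1.5-fold lower at day 7 in Flag and at least 1.5-fold higher at day 7 in D209N, so the arms moved in opposite directions. This is 0.684% of members, and 0.927% of all constitutive regions did the same. Each arm has 1 list per day, and this difference was not tested.

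Fat3, the atypical cadherin gene, had day 7 over day 3 folds of 0.59 in Flag and 11.26 in D209N, from 1349 to 790 bp and from 173 to 1948 bp. Gm3383 had 0.46 and 2.90, and Gm3696 had 0.64 and 2.33. Both belong to predicted genes that may have near-identical copies, so their reads may be shared. Slc9a2, a sodium and proton exchanger gene, had 0.57 and 1.94, going from 1432 to 821 bp in Flag and from 489 to 951 bp in D209N. Klhl29 had 0.63 and 1.86. Wapl, a cohesin release factor gene, had 0.63 and 1.89 in the member nearest to it, which was covered by 1934 bp in Flag day 3 and 819 bp in D209N day 3. Mpped2 had 0.65 and 1.85. In each of the 7 the 2 arms differed more at day 3 than the 1.5-fold limit, with D209N the lower.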

How the results depend on the processing

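No paired analysis was possible because each group has 1 deposited list, and for the same reason no replicate could be left out. The number of members was 5797 at a minimum width of 1000 bp, 148 at 2000 bp and 80 when a single interval of 1500 bp was required in every list. It was 703 with 50% cover required in each list, 1043 with intervals within 100 bp joined, and 940, 1002, 838 and 792 without Flag day 3, D209N day 3, Flag day 7 and D209N day 7. Of these last, 938, 980, 838 and 792 touched a member.

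The gene-end share was 72.2% at 1000 bp width, 79.8% with a window of 2 kb (narrower regions 48.3%) and 66.5% when a coding start was required. The last alternative and those on tRNA genes were chosen after seeing the data. The number of members lower in D209N at day 3 was 392 at the lower fold limit tried, 88 at 2-fold and 152 after division by list medians. At day 7 the number higher in D209N was 94 at the lower limit, 6 at 2-fold and, by widest interval, 109. The number higher at day 7 in Flag was 393 at the lower limit, 74 at 2-fold and 141 after division by list medians, and in D209N 216 at 2-fold and 236 after division. No alternative turned the direction with more members. The CpG-rich share was 85.6% for windows covered whole, 40 members had another within 25 kb, and the tRNA share was 1.76% when counted once per 1 Mb and 1.45% at 1000 bp width. Of 37 values under alternatives, 21 moved and 16 did not, counting as moved a count more than 1.5-fold from the reported one or a share outside its 95% counting interval.

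Depth is unknown, and nothing is known here of stretches below the calling threshold. A fold of covered base pairs measures interval edges, not signal. The lists differ in length, and D209N day 3 is the shortest, which no fold here is corrected for beyond the division by list medians.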
